A study of Rattus norvegicus with 10 samples.

Results

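The levels of miRNAs in the tissue under the skin were compared between 34 days and 1 h after the start of therapy in rats with collagen-induced arthritis (CIA), with both therapy arms pooled. The comparison was made up of 8 of the 10 small RNA libraries of the series, 4 at 34 days and 4 at 1 h, and of 359 of the 723 mature miRNAs in the files, those with at least 1 cpm (reads per library total, corrected with TMM factors by edgeR) in at least 5 of the 10 libraries. All 10 libraries came from female Wistar rats in which arthritis was induced by immunization with bovine type II collagen, and the ages were not given in the sources used here. The MS arm, labelled AP by the submitters, received mechanical stimulation with a short needle inserted and twirled at the lower back and below the knee, and the PLA arm received placebo, which the paper describes as sterile saline. The groups, each of 2 libraries, were MS_E and PLA_E at 1 h, MS_A and PLA_A at 34 days, and CIA_B before any therapy. CIA_B entered the fit with a mean of its own and not the comparison. The labels do not say whether each library is 1 rat, so that p-values measure the spread between libraries only, and no arthritic group without any procedure was followed to 34 days among these libraries. Time under therapy, time with arthritis and age of the rat can therefore not be told apart.

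miRNAs are short RNAs that are cut from hairpins in longer transcripts and repress messages that pair with their seed, the bases from the second to the eighth. Many hairpins lie in rows on 1 primary transcript, and the largest such row in mammals is the imprinted Dlk1-Dio3 region, whose miRNAs are made from the maternal chromosome only, are abundant in the embryo and the newborn, and in muscle are known from development and regeneration. The H19 and Igf2 genes form another imprinted locus with miRNAs, again of high activity in growing tissue. Other hairpins lie in introns of muscle genes and follow the fibre type, such as miR-208b in Myh7 and miR-499 in Myh7b, which mark slow fibres.

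The mature sequences below carry the comparison. They are the 13 miRNAs that passed the thresholds, with miR-30e-5p, which had the smallest p among miRNAs higher at 34 days, and miR-127-3p, the most abundant Dlk1-Dio3 miRNA. They are given as in RefSeq for the rat assembly GRCr8, in which 324 of the 359 miRNAs were found by name, and capitals mark the seed. The first 6 come from the Dlk1-Dio3 region, the next pair from H19.
miR-127-3p: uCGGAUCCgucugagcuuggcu
miR-299a-5p: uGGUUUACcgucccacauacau
miR-382-3p: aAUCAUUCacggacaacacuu
miR-410-3p: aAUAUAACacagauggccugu
miR-485-3p: cAUACACGgcucuccucucuuc
miR-493-5p: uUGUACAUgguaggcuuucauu
miR-675-5p: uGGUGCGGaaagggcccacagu
miR-675-3p: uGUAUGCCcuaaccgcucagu
miR-215: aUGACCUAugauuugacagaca
miR-501-3p: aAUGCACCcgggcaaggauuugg
miR-208b-3p: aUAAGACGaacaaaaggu
miR-499-5p: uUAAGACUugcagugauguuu
miR-144-5p: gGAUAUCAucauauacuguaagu
miR-33-5p: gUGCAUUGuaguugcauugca
miR-30e-5p: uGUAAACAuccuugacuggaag
The 6 Dlk1-Dio3 seeds shown all differ from each other. Of the tested miRNAs in the Dlk1-Dio3 list, 53 had a sequence and these carried 52 distinct seeds. The slow fibre miRNAs miR-208b-3p and miR-499-5p share the first 6 bases of the seed.

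The libraries held between 1513799 and 8926170 reads on miRNAs, and in the 8 compared libraries 3 counts correspond to between 0.366 and 0.828 cpm. The tissue is labelled muscle, described in the paper as subcutaneous tissue with subcutaneous muscle, while the series text also speaks of blood. The muscle miRNAs were abundant in all libraries, miR-133a-3p with between 67933 and 139388 cpm, and the erythroid miR-451-5p stayed between 12.9 and 79.8 cpm. In every group 1 library was high and 1 low in the muscle miRNA miR-1-3p, at or above 80416 cpm or at or below 15567 cpm, which leaves this split balanced over the times compared. Within each arm it falls together with the replicate number, replicate 1 being the low library of MS and the high library of PLA at both times. MS_E replicate 1 and PLA_A replicate 1 stood apart in other respects, given below beside the results they touch. The strongest single miRNA, miR-10b-5p, took between 10.0% and 51.8% of the reads of a library.

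Few miRNAs differed between 34 days and 1 h. The study called a miRNA differential by a fold change above 2 together with an unadjusted p under 0.05, and 13 of 359 miRNAs passed both (3.62%), 4 of them higher (1.11%) and 9 lower (2.51%) at 34 days. An unadjusted p under 0.05 alone was reached by 20 miRNAs (5.57%), near the 5% that this threshold admits where nothing differs, with 5 higher (1.39%) and 15 lower (4.18%). With the miR-1 split as a further term in the fit it was reached by 39 miRNAs (10.9%), 16 higher and 23 lower, with a smallest adjusted p of 0.291. After Benjamini-Hochberg adjustment none of the 359 passed (0.0%) in edgeR, with a smallest adjusted p of 0.694, and none passed in limma-voom or DESeq2, which gave 20 and 27 miRNAs at an unadjusted p under 0.05. No single miRNA below is therefore established, and each adjusted p below is that of edgeR's two-sided quasi-likelihood test over the 359 miRNAs. Of the 13 miRNAs, miR-299a-5p was the 1 that passed in each of the 8 fits that left out 1 of the compared libraries, and 12 lost their place in at least 1 of them. The 4 higher and 9 lower miRNAs became 0 and 9 when libraries were scaled by their size alone. The median log2 fold change of all miRNAs was 0.05, and 160 of them (44.6%) had a negative value.

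The Dlk1-Dio3 miRNAs had values in 1 direction, although few of them passed a threshold. Of 86 listed names of the region in the files 55 were tested, and 55 of 55 had a negative log2 fold change. Of the 304 tested miRNAs outside the list 105 had one. Their median was −0.71, against 0.13 outside the list, and their changes lay between −1.56 and −0.11. An unadjusted p under 0.05 was reached by 11 of them, out of the 15 lower miRNAs in all, and 5 also passed the 2-fold threshold. These miRNAs are cut from shared transcripts, so they are not 55 independent observations, and the list was chosen with this pattern known.

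Summed over the listed names of the region, the level at 1 h was 5850 and 5989 cpm in MS_E, and 2907 and 5342 cpm in PLA_E. At 34 days it was 2666 and 3697 cpm in MS_A, and 2240 and 2837 cpm in PLA_A. Each arm was thus lower at 34 days without overlap, but PLA_E replicate 1 lay below MS_A replicate 2, so that the pooled times overlap. The means were 5022 ± 1437 cpm at 1 h and 2860 ± 612 cpm at 34 days (SD, n = 4), a ratio of 1.76. Before therapy the sum was 5699 and 4696 cpm, within the range of the 1 h libraries and above all 4 libraries at 34 days. Within the miR-1 split, the times overlapped among the high libraries and did not among the low ones. Among the libraries high in miR-1-3p the sums were 2907 and 5989 cpm at 1 h against 2240 and 3697 cpm at 34 days, and among the low ones they were 5342 and 5850 against 2666 and 2837 cpm. In bulk tissue, fewer cells of a type and less RNA per cell cannot be told apart.

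**Figure D1:**
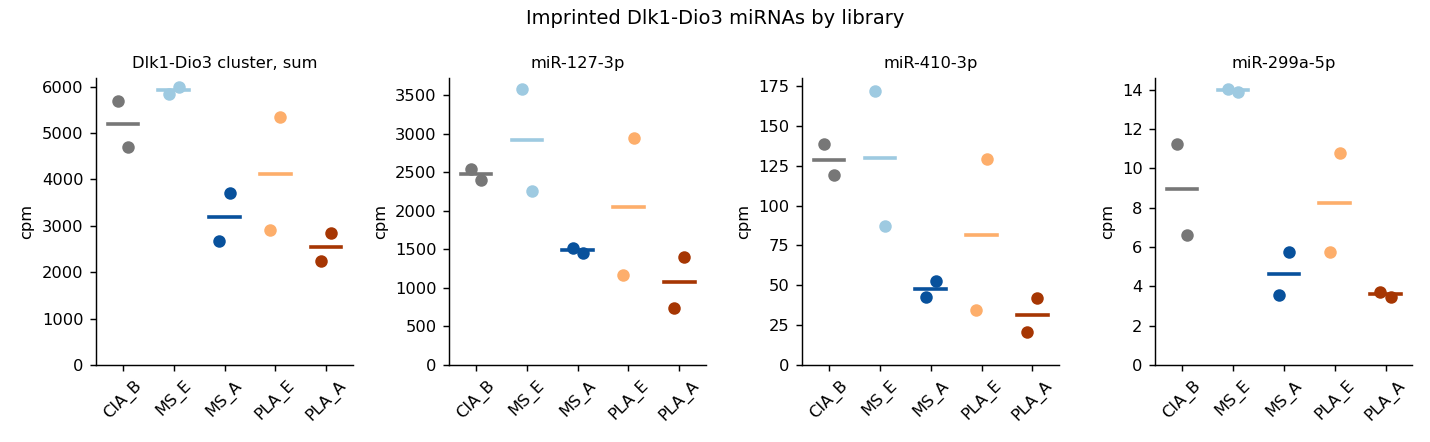
Level in cpm of the summed Dlk1-Dio3 miRNAs and of 3 of them in each of the 10 libraries (points, 2 per group) with the mean of each group (line), before therapy in grey, 1 h in light and 34 days in dark colours. In the sum, the 34 day libraries reach at most 3697 cpm while 3 of the 4 libraries at 1 h and both before therapy lie at or above 4696 cpm.

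The most abundant member, miR-127-3p, lies antisense to Rtl1 in the region. It had 3579 and 2258 cpm in MS_E, 1167 and 2948 cpm in PLA_E, 1523 and 1451 cpm in MS_A and 737 and 1406 cpm in PLA_A. The mean was 2488 ± 1033 cpm at 1 h and 1279 ± 364.9 cpm at 34 days (SD, n = 4), and its log2 fold change of −0.96 ± 0.35 (SE, adjusted p = 0.728) had an unadjusted p of 0.0212. PLA_E replicate 1 was again the only library at 1 h inside the range of the 34 day libraries. The change was nearly equal in both arms, −0.97 in MS and −0.94 in PLA. In the 8 fits that left out 1 library it lay between −1.24 and −0.68. Its unadjusted p stayed under 0.05 in 3 of them.

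miR-299a-5p had the smallest unadjusted p of all 359 miRNAs (0.00391). It had 14.1 and 13.9 cpm in MS_E, 5.76 and 10.8 cpm in PLA_E, 3.56 and 5.73 cpm in MS_A and 3.74 and 3.46 cpm in PLA_A, a log2 fold change of −1.31 ± 0.35 (SE). All libraries at 34 days were below all at 1 h, a separation seen for 2 of 359 miRNAs (0.557%), the other being miR-382-3p of the same region. The gap between PLA_E replicate 1 and MS_A replicate 2 was small. miR-382-3p had 2.62 and 5.62 cpm in MS_E, 2.41 and 2.21 cpm in PLA_E, 0.949 and 1.71 cpm in MS_A and 0.996 and 1.09 cpm in PLA_A (log2 fold change −1.16 ± 0.37, SE, adjusted p = 0.694). These levels rest on 4 to 36 reads a library.

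miR-410-3p is the last hairpin of the region. It had 172 and 87.3 cpm in MS_E, 34.3 and 129 cpm in PLA_E, 42.5 and 52.4 cpm in MS_A and 20.4 and 41.9 cpm in PLA_A. Its log2 fold change was −1.41 ± 0.45 (SE, adjusted p = 0.694), with −1.44 in MS and −1.38 in PLA, and before therapy it stood at 138.5 and 119 cpm. Near the other end of the region, miR-493-5p had 17.1 and 11.7 cpm in MS_E, 4.42 and 16.3 cpm in PLA_E, 4.03 and 5.73 cpm in MS_A and 2.49 and 6.75 cpm in PLA_A (log2 fold change −1.28 ± 0.46, SE, adjusted p = 0.728). In both, PLA_E replicate 1 lay among the libraries of 34 days. miR-485-3p was at the limit of detection, with 6 to 16 reads in each library at 1 h and 0, 11, 0 and 1 reads in MS_A replicates 1 and 2 and PLA_A replicates 1 and 2, and had a log2 fold change of −1.38 ± 0.61 (SE, adjusted p = 0.764). Of the 8 fits that left out 1 library, the call of miR-485-3p was lost in 6 and that of miR-493-5p in 4.

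A further 6 Dlk1-Dio3 miRNAs, named after their values were seen except for miR-127-3p, reached an unadjusted p under 0.05 with less than a 2-fold change. Besides miR-127-3p they were miR-495 (log2 fold change −0.96), miR-434-5p (−0.88), miR-299a-3p (−0.92), miR-300-3p (−0.97) and miR-541-5p (−0.73). Both arms of the miR-299a hairpin thus passed this threshold. The most abundant of these others, miR-541-5p, had 222.02 and 299.3 cpm in MS_E, 183.6 and 140 cpm in PLA_E, 128.4 and 191 cpm in MS_A and 91.9 and 101 cpm in PLA_A, so that the times separated within each arm and overlapped between arms.

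Along chromosome 6 of GRCr8, which is not the assembly that the reads were aligned to, the Dlk1-Dio3 miRNAs form 2 groups of hairpins with gaps under 10000 bases. The first held 13 tested miRNAs, from miR-673 to miR-136 with miR-127 among them, with a median log2 fold change of −0.65, and the second held 40, from miR-379 to miR-410, with a median of −0.73. All 13 and all 40 were negative. The second group included miR-1193-3p and miR-6331, which were not in the list of 55. Of the 15 genomic groups with at least 4 tested miRNAs, these 2 had the lowest medians. The next lowest was the group of miR-532, miR-188, miR-362, miR-501 and miR-500 on chromosome X, with a median of −0.33, and the highest was the let-7f-2 and miR-98 group with 0.38.

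**Figure D2:**
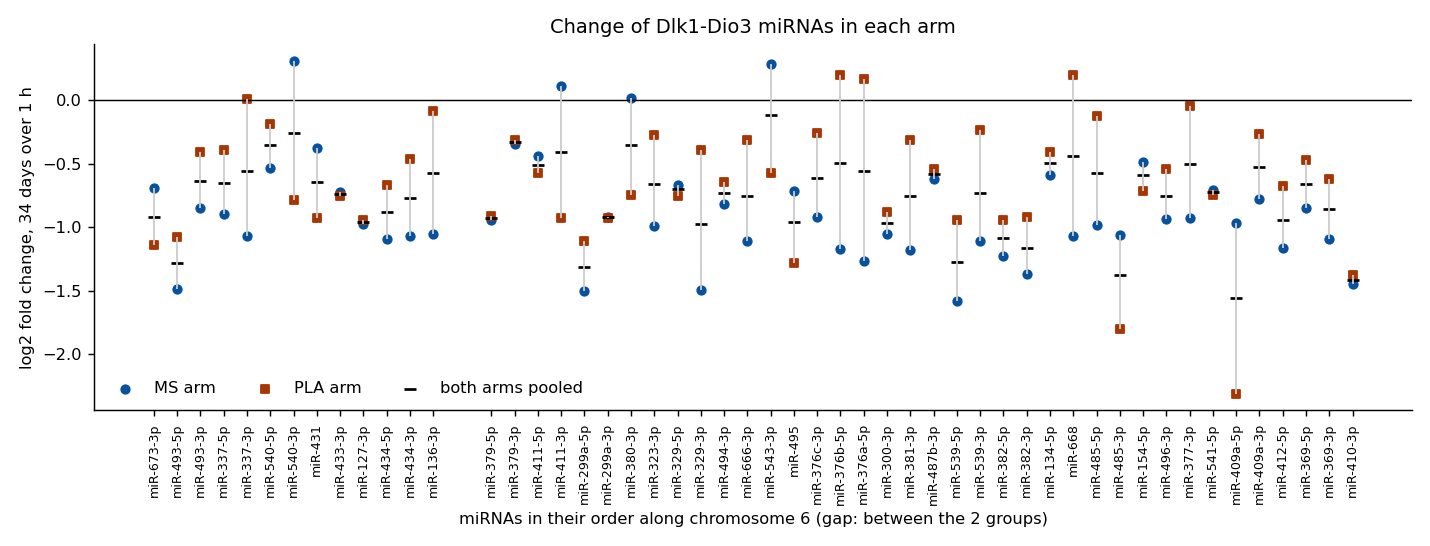
log2 fold change between 34 days and 1 h (vertical axis) of the 51 listed Dlk1-Dio3 miRNAs found in the 2 genomic groups, in their order along chromosome 6 (horizontal axis), in the MS arm (circles), in the PLA arm (squares) and with both arms pooled (dashes). All pooled values lie below 0, while single members of either arm lie above it.

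The arms use different libraries at both times and were fitted side by side. In the Dlk1-Dio3 list 51 of 55 changes were negative in MS, with a median of −0.93, and 50 of 55 in PLA, with a median of −0.62. Both were negative for 46 of 55, beside 90 of all 359 miRNAs (25.1%). Within each arm both libraries at 34 days were below both at 1 h for 9 miRNAs (2.51%), of which 8 were of the Dlk1-Dio3 list and the other was miR-675-5p. The 8 were miR-299a-5p, miR-299a-3p, miR-379-5p, miR-382-3p, miR-409a-5p, miR-485-3p, miR-495 and miR-541-5p.

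The number of Dlk1-Dio3 miRNAs with an unadjusted p under 0.05 depended on single libraries. It was 4 without PLA_E replicate 2, 5 without MS_A replicate 1 and 7 without MS_E replicate 1 or without PLA_A replicate 1, in place of 11. The count of negative values stayed between 49 and 55 of 55 and their median between −0.89 and −0.53 with each library left out in turn.

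The other imprinted locus had values in the same direction. All 4 miRNAs of H19 and Igf2 had negative values (median −1.001), and both arms of miR-675, which is cut from the H19 RNA itself, passed the thresholds of the study. miR-675-5p had 4.32 and 6.40 cpm in MS_E, 1.88 and 3.03 cpm in PLA_E, 1.90 and 1.10 cpm in MS_A and 0.996 and 1.64 cpm in PLA_A (log2 fold change −1.21 ± 0.39, SE, adjusted p = 0.694). It separated within each arm, with PLA_E replicate 1 just below MS_A replicate 1. Before therapy it was at 0.866 and 1.18 cpm, by value below all 4 libraries at 1 h, of which the 2 of MS were the highest. In CIA_B replicates 1 and 2, 3 counts correspond to 2.60 and 0.441 cpm. The value of CIA_B replicate 1 thus lies under its floor and cannot be placed below PLA_E replicate 1. The levels rest on 11 to 41 reads a library at 1 h and 4 to 9 at 34 days. The summed level of the 4 miRNAs was 47.2 and 77.3 cpm in MS_E and 41.8 and 38.1 cpm in PLA_E, above the 21.6 and 20.6 cpm before therapy and the 19.3 to 29.4 cpm of the libraries at 34 days.

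miR-675-3p had 32.4 and 43.6 cpm in MS_E, 19.2 and 14.6 cpm in PLA_E, 8.78 and 10.8 cpm in MS_A and 16.4 and 12.9 cpm in PLA_A, with 11.3 cpm in each of the 2 libraries before therapy. The pooled log2 fold change of −1.06 ± 0.41 (SE, adjusted p = 0.740) was made up of −1.91 in MS and −0.20 in PLA, a difference between arms with an unadjusted p of 0.0219 and an adjusted p of 0.993 in edgeR. Both MS libraries at 1 h were above all others, and both PLA libraries at 1 h were above those before therapy but overlapped with those of PLA_A. The Igf2 intronic miRNAs did not pass, with log2 fold changes of −0.94 for miR-483-5p (adjusted p = 0.764) and −0.75 for miR-483-3p (adjusted p = 0.764).

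2 further miRNAs were lower by the thresholds, both at low levels. miR-215, which shares its seed with miR-192 and is known from gut and kidney, had 4.32 and 0.625 cpm in MS_E, 10.7 and 1.66 cpm in PLA_E, 0.237 and 0.975 cpm in MS_A and 0.249 and 0.729 cpm in PLA_A. Its log2 fold change of −2.20 ± 0.71 (SE, adjusted p = 0.694) rests on PLA_E replicate 1 and MS_E replicate 1 at 1 h and on 1 to 8 reads a library at 34 days, and was −1.37 without PLA_E replicate 1. miR-501-3p, from an intron of the chloride transporter gene Clcn5, had 14.1 and 5.78 cpm in MS_E, 2.28 and 6.35 cpm in PLA_E, 4.51 and 4.27 cpm in MS_A and 2.99 and 1.28 cpm in PLA_A (log2 fold change −1.01 ± 0.44, SE, adjusted p = 0.764). It overlapped between the times through PLA_E replicate 1, and was −0.65 without MS_E replicate 1.

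Among the 4 miRNAs higher at 34 days were both slow fibre miRNAs. miR-208b-3p had 32.7 and 59.6 cpm in MS_E, 221.9 and 55.7 cpm in PLA_E, 247 and 83.1 cpm in MS_A and 690 and 61.8 cpm in PLA_A, a log2 fold change of 1.63 ± 0.71 (SE, adjusted p = 0.764). miR-499-5p had 23.8 and 34.8 cpm in MS_E, 147.3 and 57.4 cpm in PLA_E, 156 and 56.0 cpm in MS_A and 336 and 79.9 cpm in PLA_A, a log2 fold change of 1.43 ± 0.56 (SE, adjusted p = 0.740). In both, 1 library at each time in PLA was several times the other, and the times overlapped. The third tested miRNA of the list, miR-499-3p, was also higher (1.17, adjusted p = 0.764).

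The levels before therapy were not those of 1 h. miR-208b-3p stood at 513 and 432.5 cpm in CIA_B and miR-499-5p at 313 and 153 cpm, above nearly all compared libraries, the exceptions being PLA_A replicate 1 in both and MS_A replicate 1 in miR-499-5p. At 1 h both MS libraries and PLA_E replicate 2 had at most 59.6 cpm of either miRNA, and at 34 days MS_A replicate 2 and PLA_A replicate 2 had at most 83.1 cpm, so that low libraries were found at both times. The log2 fold change of miR-208b-3p was 0.79 without PLA_A replicate 1 and 2.18 without PLA_E replicate 1. That of miR-499-5p was 0.94, under the 2-fold threshold, without MS_A replicate 1. Each of these 2 miRNAs lost its call in 5 of the 8 fits that left out 1 library. The median of the 3 slow fibre miRNAs, 1.43, was 0.79 without PLA_A replicate 1 and 0.28 without both that library and MS_E replicate 1. The miRNAs of skeletal muscle in general, which are not tied to the slow fibre, had a median log2 fold change of 0.14 over 6 tested, and none passed a threshold. This median was −0.13 without MS_E replicate 1 and 0.59 without MS_E replicate 2.

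miR-144-5p, from the erythroid hairpin pair of miR-144 and miR-451, had 4.17 and 3.12 cpm in MS_E, 5.23 and 2.21 cpm in PLA_E, 7.12 and 7.56 cpm in MS_A and 6.73 and 11.9 cpm in PLA_A (log2 fold change 1.07 ± 0.36, SE, adjusted p = 0.718). All libraries at 34 days were above all at 1 h and above the 2 before therapy, at 3.46 and 2.79 cpm. Its more abundant neighbour miR-451-5p, the defining erythroid miRNA, had 79.8 and 19.8 cpm in MS_E, 24.8 and 14.3 cpm in PLA_E, 34.4 and 42.5 cpm in MS_A and 24.2 and 41.6 cpm in PLA_A, with a log2 fold change of 0.18 (adjusted p = 0.975), which was 0.84 without MS_E replicate 1 and −0.19 without PLA_A replicate 2. The 3 erythroid miRNAs tested had a median of 0.92, which was 0.27 without MS_A replicate 2 and 0.50 without PLA_E replicate 2, and their summed level lay between 17.4 and 88.6 cpm at 1 h and between 42.2 and 67.8 cpm at 34 days. The part of blood in the tissue in this result was not tested.

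miR-33-5p, from an intron of the sterol regulator Srebf2 and a repressor of the cholesterol exporter Abca1, had 1.39 and 0.781 cpm in MS_E, 3.62 and 0.552 cpm in PLA_E, 1.19 and 3.41 cpm in MS_A and 7.72 and 8.39 cpm in PLA_A. The log2 fold change was 1.33 ± 0.59 (SE, adjusted p = 0.764), with 0.90 in MS and 1.73 in PLA, and the MS libraries overlapped between the times. These levels rest on 31 and 46 reads in PLA_A but on only 2 reads in PLA_E replicate 2, on 5 in each of MS_E replicate 2 and MS_A replicate 1, on 9 in MS_E replicate 1, and on 27 and 28 in the remaining 2. The fold change was 0.97 without PLA_E replicate 2, and the call was lost in 5 of the 8 fits that left out 1 library.

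**Figure D3:**
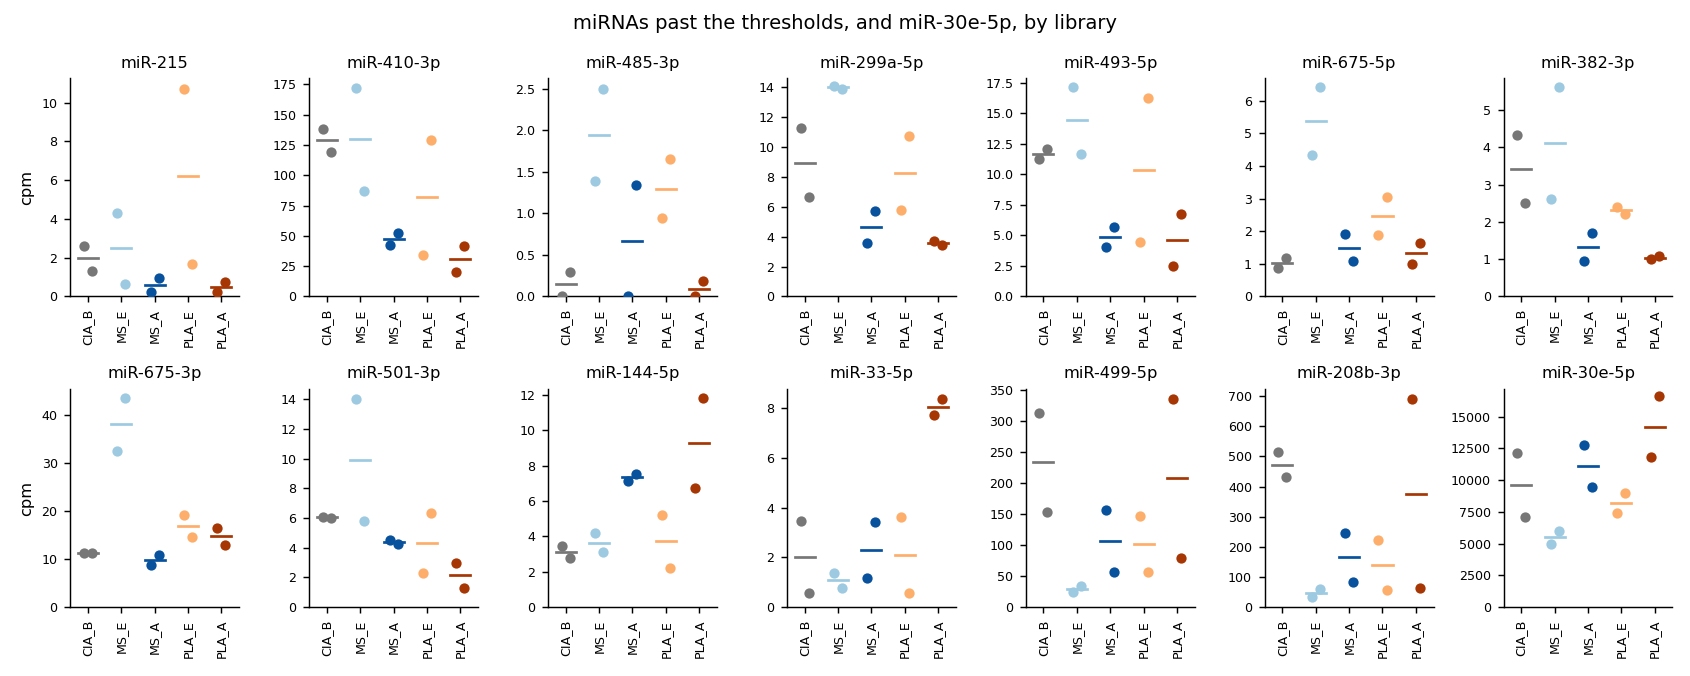
Level in cpm of the 13 miRNAs past the thresholds of the study and of miR-30e-5p in each library (points, 2 per group) with the group mean (line), before therapy in grey, 1 h in light and 34 days in dark colours. Each panel has its own scale from 0; only miR-299a-5p, miR-382-3p, miR-144-5p and miR-30e-5p have times that do not overlap.

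miR-30e-5p was the most abundant miRNA with times that did not overlap. Its hairpin lies in an intron of the transcription factor gene Nfyc, and the miR-30 family is abundant in muscle and other differentiated tissues. It had 4992 and 5983 cpm in MS_E, 7435 and 8998 cpm in PLA_E, 12795 and 9435 cpm in MS_A and 11784 and 16582 cpm in PLA_A. The mean was 6852 ± 1747 cpm at 1 h and 12649 ± 2976 cpm at 34 days (SD, n = 4), and the log2 fold change of 0.90 ± 0.28 (SE, adjusted p = 0.694) was 1.02 in MS and 0.79 in PLA. Its unadjusted p of 0.00993 stayed under 0.05 in each of the 8 fits that left out 1 library. Before therapy it was at 12113 and 7123 cpm, the first within the range of 34 days and the second within that of 1 h. In the miR-30 family 10 of 11 miRNAs had positive values, with a median of 0.41, and miR-30e-5p alone reached an unadjusted p under 0.05. The median was 0.13 without MS_A replicate 1 and 0.27 without PLA_A replicate 2, with 11 and 10 positive values.

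All 4 libraries at 34 days lay above all 4 at 1 h for 5 miRNAs (1.39%), miR-30e-5p, miR-144-5p, miR-378a-5p, miR-3473 and let-7f-1-3p, of which miR-3473 and let-7f-1-3p were named after their values were seen. miR-378a-5p, from the gene of the metabolic coactivator Ppargc1b, had 181.4 and 320 cpm in MS_E, 289 and 313 cpm in PLA_E, 461 and 482 cpm in MS_A and 373 and 382.3 cpm in PLA_A (log2 fold change 0.62 ± 0.28, SE, adjusted p = 0.764). Within each arm, both libraries at 34 days were above both at 1 h for 12 miRNAs (3.34%). Among the 12 were also miR-126a-5p of the endothelium (log2 fold change 0.58, adjusted p = 0.764, and 0.34 without MS_E replicate 1), miR-24-2-5p and miR-27a-3p of one genomic group (0.59 and 0.46), and miR-30c-1-3p (0.39), whose hairpin neighbours that of miR-30e.

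The lists of families and cell types are summarised by their medians, beside 0.05 for all miRNAs. Each of the 8 libraries compared was also left out in turn, an alternative added after the data were seen, and the sign of the median then turned in 13 of the 24 lists. Of the families, miR-15/16 was higher for 8 of 8 (median 0.50), miR-29 for 6 of 6 (0.26), the miR-23/27/24 clusters for 8 of 9 (0.18) and let-7 for 14 of 18 (0.15). None was at an unadjusted p under 0.05 in the fit of all 10 libraries by arm and time, and miR-16-5p reached it in 1 of the 8 fits that left out 1 library. The miR-15/16 median was 0.14 without PLA_A replicate 1, with 7 of 8 higher. The miR-29 median was 0.03 without MS_E replicate 1 (4 of 6 higher), 0.04 without MS_A replicate 2, 0.05 without PLA_E replicate 2 (3 of 6) and 0.66 without MS_E replicate 2. Without MS_A replicate 1 the median of the miR-23/27/24 clusters was 0.08 and that of let-7 was 0.10. miR-16-5p, the most abundant of its family, had a log2 fold change of 0.59 (adjusted p = 0.789), which was 0.29 without PLA_A replicate 1, and miR-29a-3p, a repressor of collagen messages, 0.51 (adjusted p = 0.764), which was 0.34 without MS_E replicate 1. The miR-17/92 cluster and its paralogs were higher for 6 of 16 (−0.06), the miR-99/100 and miR-125 families for 7 of 11 (0.01), the miR-10 and miR-196 miRNAs of the Hox clusters for 4 of 8 (0.04) and the miR-183 cluster for 1 of 2 (0.17). The signs of these 4 medians turned with single libraries, over a range of −0.21 to 0.06 for miR-17/92, −0.13 to 0.24 for miR-99/100 and miR-125, −0.10 to 0.12 for the Hox miRNAs and −0.53 (without MS_A replicate 1) to 0.81 (without MS_E replicate 1) for the miR-183 cluster.

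Of the cell type lists, the 6 miRNAs of fat and metabolism had a median of 0.48, the 5 endothelial ones −0.03, the 4 of smooth muscle 0.12, the 3 of fibroblasts 0.01, the 2 of cartilage 0.15 and the 5 neural ones 0.07. Without MS_E replicate 1 the median of the fat and metabolism list was 0.21, that of the smooth muscle list 0.32, that of the fibroblast list 0.25 and that of the endothelial list 0.24, with 5 of 5 endothelial miRNAs higher. Without PLA_A replicate 2 the fat and metabolism median was 0.26 and the smooth muscle median 0.04. Without PLA_A replicate 1 the medians of cartilage and of the neural list were −0.23 and −0.38. The lowest endothelial median was −0.23, without PLA_E replicate 2, and the lowest of the fibroblast list −0.37, without MS_A replicate 1. The 10 myeloid and inflammation-induced miRNAs had a median of −0.20, with 3 of 10 higher, which was 0.13 with 6 of 10 higher without MS_E replicate 1 and −0.41 without MS_A replicate 1. In this list miR-21-5p, which is induced in injury and inflammation, had a log2 fold change of 0.29 (adjusted p = 0.930) and miR-146b-5p, a brake on NF-kB signalling, −0.81 (adjusted p = 0.764). The first was 0.05 without MS_A replicate 1 and the second −0.34 without MS_E replicate 1. In the fit of all 10 libraries by arm and time the list held no miRNA at an unadjusted p under 0.05. miR-146b-5p reached it in 2 of the 8 fits that left out 1 library.

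**Figure D4:**
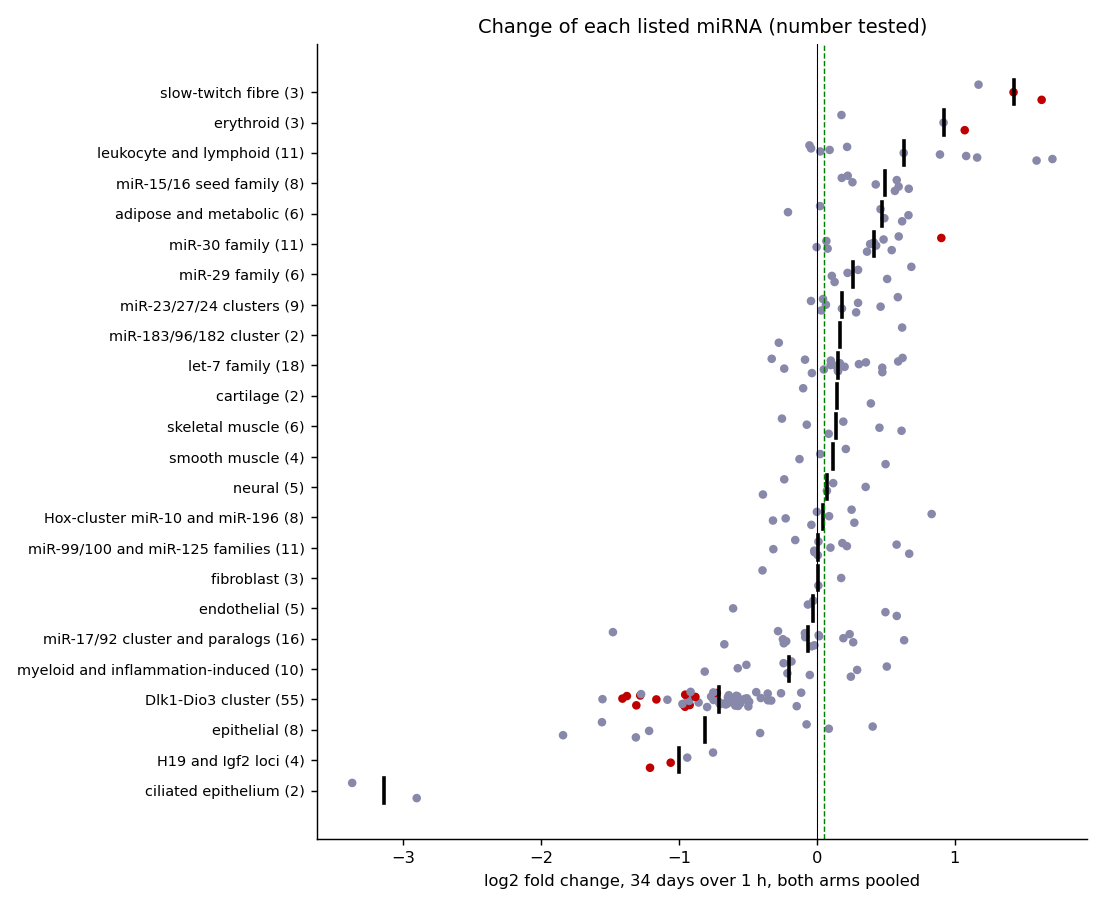
log2 fold change between 34 days and 1 h, both arms pooled, of each tested miRNA in the 24 lists (points, red with an unadjusted p under 0.05), with the list median (black bar) and the median of all 359 miRNAs (dashed line, 0.05). Lists are ordered by their median, from −3.14 for the 2 miRNAs of ciliated epithelium to 1.43 for the 3 slow fibre miRNAs, and 13 of the 24 medians change sign when single libraries are left out.

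In the ciliated, epithelial and leukocyte lists single libraries stood far from the others. The 2 ciliated epithelium miRNAs had a median of −3.14, with miR-34c-5p at 1497 cpm in MS_E replicate 1 and between 4.998 and 17.6 cpm in the other 7 libraries compared, and miR-449a-5p at 258 cpm against 0.949 to 3.62 cpm. Without that library the median was 0.08, and without MS_A replicate 1 or 2 it was −1.67 and −1.65. The 8 epithelial miRNAs had a median of −0.81, made up of −2.14 in MS and 0.46 in PLA, and their sum was 494.1 cpm in MS_E replicate 1 and between 63.5 and 145.7 cpm in the other 7. Their median was 0.15 without that library, −0.09 without MS_A replicate 1, −0.04 without MS_A replicate 2 and −1.74 without PLA_A replicate 1. The 11 leukocyte and lymphoid miRNAs had a median of 0.63, made up of −0.03 in MS and 2.06 in PLA, which became −0.03 without PLA_A replicate 1, 0.09 without PLA_E replicate 1 and 1.28 without MS_A replicate 1.

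Of the leukocyte miRNAs, miR-142-5p, a miRNA of blood cells, had 258 and 303 cpm in MS_E, 372 and 240 cpm in PLA_E, 263 and 226 cpm in MS_A, and 5855 and 551 cpm in PLA_A. Only PLA_A replicate 1 was far from the rest, and its log2 fold change of 1.59 became 0.21 without that library. Leaving out both MS_E replicate 1 and PLA_A replicate 1, an alternative added after the data were seen, left 52 of 55 Dlk1-Dio3 values negative with a median of −0.79 and 9 at an unadjusted p under 0.05. The Dlk1-Dio3 sums of these libraries, 5850 and 2240 cpm, lay next to that of the other library of their group in MS_E and below it in PLA_A.

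The change within each arm was also taken over all miRNAs, as a contrast in the joint fit with a mean per group. By it, 14 miRNAs passed the thresholds in MS (3.9%) and 10 in PLA (2.79%), none with an adjusted p under 0.05 (smallest 0.731 and 0.999). The change had the same sign in both arms for 209 of 359 miRNAs (58.2%), 90 negative and 119 positive (33.1%). Across the 359 miRNAs Pearson's r between the arms' changes was 0.12 and Spearman's rho 0.25, and r was −0.02 over the 304 miRNAs outside the Dlk1-Dio3 list. These describe miRNAs, which are not independent replicates, and the arms share the scaling of the libraries but no library.

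The test of the difference between arms gave an unadjusted p under 0.05 for 12 miRNAs (3.34%) and an adjusted p under 0.05 for none, with a smallest adjusted p of 0.993. Besides miR-675-3p, the 12 held miRNAs high in single libraries, among them miR-142-5p, miR-184, miR-449a-5p and miR-34c-5p, with unadjusted p-values of 0.0179, 0.0267, 0.0324 and 0.0362 in this order.

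**Figure D5:**
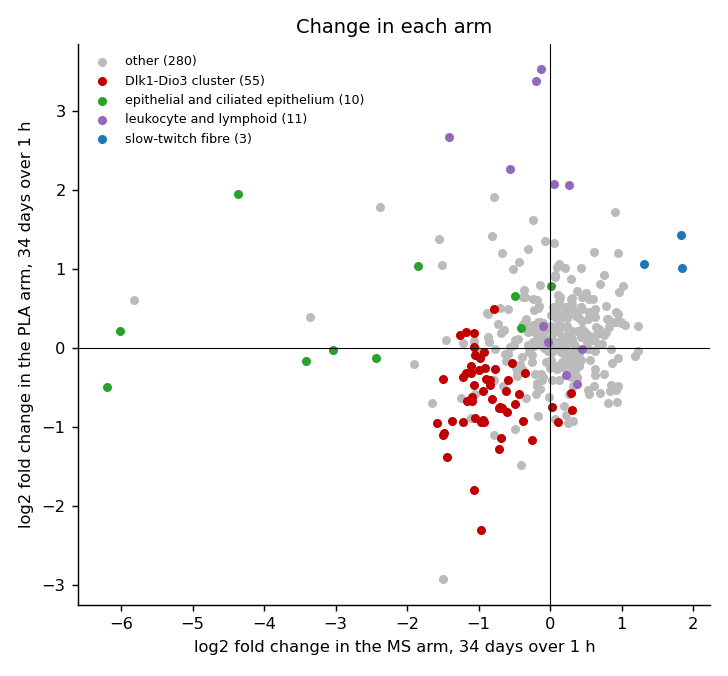
log2 fold change between 34 days and 1 h of each of the 359 miRNAs in the MS arm (horizontal axis) and in the PLA arm (vertical axis), with 4 groups of lists in colour. Of the 55 Dlk1-Dio3 miRNAs (red), 46 are negative in both arms, the 3 slow fibre miRNAs lie in the upper right, and the epithelial and leukocyte miRNAs spread along 1 arm only.

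None of the 5 most abundant miRNAs passed a threshold. Over the 8 libraries compared these were miR-10b-5p (log2 fold change −0.32, adjusted p = 0.966), miR-22-3p (0.35, adjusted p = 0.877), miR-133a-3p (0.45, adjusted p = 0.789), miR-26a-5p (0.17, adjusted p = 0.957) and miR-30a-5p (0.36, adjusted p = 0.925). miR-10b-5p, a Hox cluster miRNA, spread most, with 713640 and 143118 cpm in MS_E, 70932 and 174474 cpm in PLA_E, 551684 and 87833 cpm in MS_A and 84351 and 127061 cpm in PLA_A. Its high library was replicate 1 of MS at both times, and its log2 fold change was 0.31 without MS_E replicate 1 and −0.96 without MS_A replicate 1. Over the fits leaving out 1 library the values of the other 4 stayed positive, between 0.16 and 0.53 for miR-22-3p, 0.30 and 0.64 for miR-133a-3p, 0.03 and 0.28 for miR-26a-5p and 0.06 and 0.61 for miR-30a-5p. The lowest value was found without PLA_A replicate 2 for the first 2 and without MS_A replicate 1 for the other 2.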

How the data were processed

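Small RNA was measured in 10 libraries. The authors extracted RNA with Trizol, used the TruSeq small RNA kit and a HiSeq 2000 sequencer, trimmed adapters and discarded reads under 18 bases, aligned them to rn4 and to miRBase 18 and counted them with the miRDeep2 quantifier. The submitters' processing notes name CASAVA 1.8 and Bowtie. The authors deposited raw read counts per mature miRNA and precursor for each library, and these were used. A joined table of the series, whose 20 value columns could not be matched to the labels, was not used.

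Of 723 names, 34 occur with several precursors and were taken once with the largest count. 364 names were removed by the filter, 144 of which had no read in any library, and the 359 left hold 99.97% of the reads. Counts were scaled with the TMM factors of edgeR 4.0.16 (0.675 to 1.41) and tested with its quasi-likelihood test (two-sided, R 4.3.3, prior count 2) in 1 fit of all 10 libraries, with terms for CIA_B, arm and time and 6 residual degrees of freedom. The arms and their difference were fitted with a mean per group. The SE of a log2 fold change was derived from the test. It is the absolute log2 fold change, taken with the prior count, over the square root of F. Floors of 3 counts cover counting error only. Libraries of a group differed far beyond sampling noise. The method was also run on simulated counts, drawn independently around 1 mean per miRNA with known changes set at 34 days. These held neither the miR-1 split nor outlying libraries, so they cannot show how the method handles them.

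The members, the 24 lists and the thresholds were chosen with earlier results of these data known. miRNAs were named if they passed the thresholds (up to 12 a direction), were among the 5 most abundant, or were the most abundant or smallest-p member of a list, and others are said to be named after their values were seen or are counted by a separation of the times. A miRNA was called by p under 0.05 and more than 2-fold. Alternatives were limma-voom (limma 3.58.1), DESeq2 1.42.0, the size factors of DESeq2 within edgeR, scaling by library size alone, a filter at a mean of at least 100 counts, no filter, summed precursors, only the 8 libraries, a mean per group, no arm term, the replicate number as block, the miR-1 split (above or below 40000 cpm) as a term, and each library left out. Tables were made with pandas 2.3.3, numpy 2.4.6 and scipy 1.17.1 under Python 3.11.15, and the plots with matplotlib 3.10.9.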

Additional observations from a re-analysis of the deposited data

Results flagged for a closer look

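Among the named miRNAs 104 sets of 4 libraries, 52 miRNAs at each time, were searched for a single library apart from the other 3 by Dixon's ratio at its critical value for 4 samples, and 19 were found, where chance gives about 1 in 20. Of these, 7 were MS_E replicate 1 at 1 h. In that library miR-10b-5p stood at 713640 cpm (70932 to 174474 in the other 3), miR-34c-5p at 1497 cpm (6.71 to 14.9), miR-449a-5p at 258 cpm (1.25 to 3.62), miR-184 at 39.8 cpm (3.35 to 5.31), miR-146b-5p at 7431 cpm (1788 to 2645) and miR-451-5p at 79.8 cpm (14.3 to 24.8), while miR-128-3p was low at 158 cpm (519 to 581).

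At 34 days PLA_A replicate 1 stood apart in miR-142-5p at 5855 cpm (226 to 551 in the other 3), in miR-92a-1-5p at 14.7 cpm (4.14 to 4.51) and, below the others, in the Dlk1-Dio3 miRNA miR-127-3p at 737 cpm (1406 to 1523). MS_A replicate 1 stood apart in miR-10b-5p at 551684 cpm (84351 to 127061) and in miR-146b-5p at 3181 cpm (1433 to 1538). These are 2 of the miRNAs for which the MS replicate 1 library of 1 h also stood apart.

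The others were at 34 days miR-144-5p in PLA_A replicate 2 at 11.9 cpm (6.73 to 7.56), miR-24-2-5p at 181.1 cpm (245 to 255), miR-299a-5p at 5.73 cpm (3.46 to 3.74) and miR-485-3p at 1.34 cpm (0 to 0.182) in MS_A replicate 2. At 1 h they were miR-208b-3p at 221.9 cpm (32.7 to 59.6) and miR-196a-3p at 8.58 cpm (3.09 to 3.90) in PLA_E replicate 1, and miR-382-3p at 5.62 cpm (2.21 to 2.62) in MS_E replicate 2. What sets these libraries apart was not tested.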

How the results depend on the processing

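No adjusted p under 0.05 was reached under any alternative, the smallest being 0.231 with DESeq2, and no called direction reversed. The 13 calls became 22 with DESeq2 (17 lower), 31 without a filter (27 lower), 8 with a mean of at least 100 counts and between 9 and 22 with single libraries left out, most without PLA_E replicate 1. Of the 13, DESeq2 kept 13, limma-voom 10, the library size alone 6 and the leave-one-out fits 5 to 11. The 4 higher calls became 2 with limma-voom, 0 with library size only, 0 with a mean of at least 100 counts, 2 with summed precursors, 2 without both MS_E replicate 1 and PLA_A replicate 1, and 1 to 6 leaving out single libraries (1 without PLA_E replicate 2 or PLA_A replicate 1). The 9 lower calls became 14 with a mean per group and 7 to 16 leaving out single libraries.

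Of the Dlk1-Dio3 miRNAs, 13 of the 13 tested with a mean of at least 100 counts were negative, 54 of 55 with limma-voom and 49 to 55 leaving out libraries. The 11 with p under 0.05 became 7 with a mean of at least 100 counts, 7 without the arm term, 18 with the miR-1 split as a term (39 of all miRNAs, in place of 20), and 4 to 14 leaving out libraries. The cause of these differences was not tested. With the replicate number as a block there were 11 calls, 3 higher and 8 lower. The deviations of same-numbered libraries correlated at 0.54 and 0.59 between 1 h and 34 days within an arm, and from −0.54 to 0.33 for the other 8 pairs of groups, so the numbers were not taken to pair the libraries over all groups. Over all alternatives, 963 fold changes of named miRNAs kept their side of the thresholds, 79 were weaker, 28 stronger and 6 moved. The levels of miR-33-5p, miR-215, miR-382-3p, miR-485-3p and miR-675-5p rest on few reads.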
